A study of Homo sapiens with 4 samples.

Results

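The 240 human miRNAs described here are the catalogue entries with a number of 1000 or above, such as miR-1260b or miR-6787-3p (the prefix hsa- is left out of names). They were chosen by name alone, at all lengths and levels. They make up 240 of the 516 entries with a catalogue name and 240 of the 1096 entries listed in all, of which 580 are predicted sequences without a catalogue name. The small RNA came from PC-3, a cell line of human prostate cancer, kept in DMEM with fetal bovine serum. There were 2 control libraries, whose cells had no treatment, and 2 libraries from cells given apelin, the peptide ligand of the receptor APJ, at 10 µg/mL for 24 h. The labels name no vehicle for the controls and do not say whether libraries of a group had separate cultures behind them. P-values here therefore describe only how far these libraries lie apart, a spread that may be technical. The table holds miRNAs alone, so the cell line was not checked here against protein-coding markers.

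miRNAs are numbered in the order in which they were entered in the catalogue. Those with low numbers include the abundant, conserved families found by cloning, while most of those with high numbers came from deep sequencing. In the usual route a hairpin is cut from a long transcript by Drosha and then by Dicer, and one strand, the 5p or the 3p arm, is loaded into Argonaute, where bases 2 to 8 (the seed) pair with target mRNAs. A mirtron skips Drosha: the spliced-out intron is itself the hairpin, so its 3p arm ends at the 3′ splice site, where introns carry a run of pyrimidines and a final AG. Other late entries resemble tRNA or other structured RNA, and whether some of them act as miRNAs is debated.

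The mature sequences of the members on which the results turn are given 5′ to 3′ from RefSeq (GRCh38.p14), which held 217 of the 240. The first set holds 7 of the most abundant members above 0 in every library, ending with the U-rich miR-3613-5p. Capitals mark the seed.
miR-1260b: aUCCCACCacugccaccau
miR-1307-3p: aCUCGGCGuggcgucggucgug
miR-1301-3p: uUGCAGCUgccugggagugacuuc
miR-1180-3p: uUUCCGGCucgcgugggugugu
miR-1269a: cUGGACUGagccgugcuacugg
miR-1908-5p: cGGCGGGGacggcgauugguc
miR-3613-5p: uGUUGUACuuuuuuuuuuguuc
The second set holds the 5 members listed at 0 for some library although another library had at least 100 counts, with the seed in capitals.
miR-1260a: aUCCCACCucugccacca
miR-4521: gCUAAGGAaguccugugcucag
miR-3615: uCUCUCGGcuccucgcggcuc
miR-1226-3p: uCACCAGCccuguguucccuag
miR-3605-3p: cCUCCGUGuuaccuguccucuag
The third set shows 3p arms of the 6000 series whose ends lie within 5 nt of a 3′ splice site, where capitals mark a final AG if there is one. The end of miR-6881-3p lies 4 nt from that site, and the others end at it.
miR-6881-3p: auccucuuucguccuucccacu
miR-6769b-3p: cccucucugucccacccauAG
miR-6787-3p: ucucagcugcugcccucuccAG

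Members were low and often missing from a library, and a single one of them, miR-1260b, held much of their signal. Levels are given as TPM, which in this table is the count per 1000000 counts of the library. Library totals ran from 5322429 to 6014838 counts, so a count of 0 allows up to 3 counts, or 0.499 to 0.564 TPM. Of the 240 members, 136 (56.7%) had a mean under 1 TPM over the 4 libraries, 70 lay between 1 and 10 TPM, 23 between 10 and 100, 9 between 100 and 1000, and 2 at 1000 TPM or over. Of the 276 catalogue entries numbered below 1000 (let-7 included), 41 (14.9%) had a mean under 1 TPM and 62 a mean of 1000 TPM or over. The median member above 0 stood at 2.83 and 3.00 TPM in controls 1 and 2 and at 2.92 and 3.42 TPM in apelin 1 and 2. For entries numbered below 1000 the medians, in the same order, were 155.1, 188.2, 179.7 and 145.9 TPM. On the log2 scale the members' median minus that of the lower-numbered entries was -5.97 to -5.42 in the 4 libraries, on average -5.78 (exact sign-flip permutation test over 4 libraries, two-sided, p = 0.125, the smallest this design allows).

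**Figure D1:**
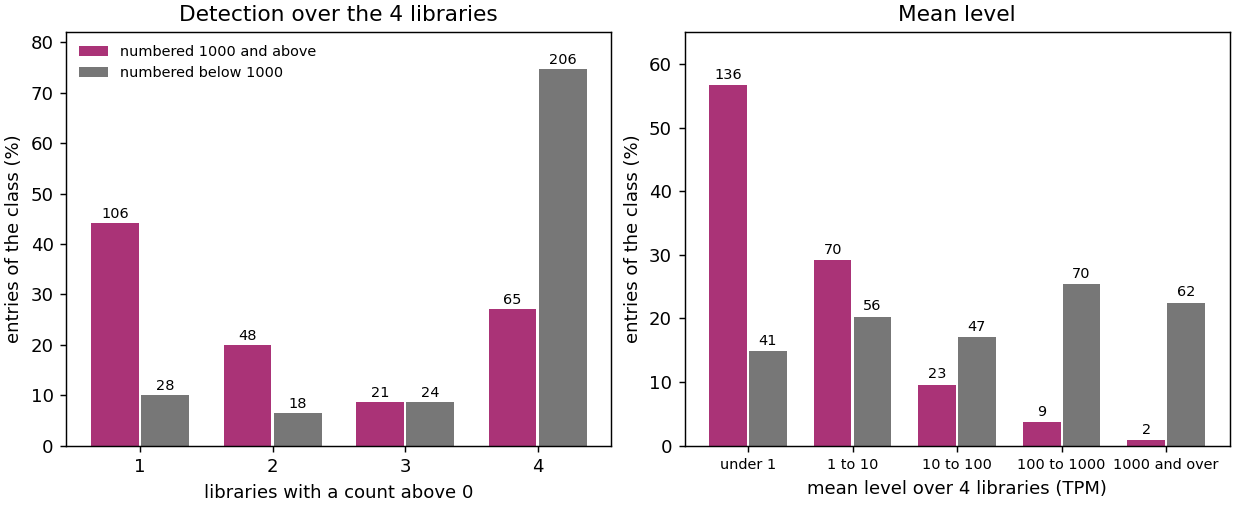
Share of entries (%) by the number of libraries with a count above 0 (left) and by mean TPM over the 4 libraries (right), for the 240 members and the 276 entries numbered below 1000, with the number of entries above each bar. Members pile up at 1 library (106) and under 1 TPM (136), while 206 of the lower-numbered entries were above 0 in all 4.

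Only 65 members (27.1%) were above 0 in all 4 libraries, against 206 (74.6%) of the entries numbered below 1000. At a mean of 1 to 10 TPM, however, the shares were the same: 35 of 70 members (50%) and 28 of 56 lower-numbered entries (50%) were above 0 in all 4. At 10 to 100 TPM they were 20 of 23 members (87.0%) and 46 of 47 lower-numbered entries (97.9%). Leaving out apelin 2 made it 72 members and 209 lower-numbered entries above 0 in the other 3. A single library listed 106 members (44.2%), and their highest count had a median of 7. In 2 libraries there were 48 members. Of these 48, 11 were in both controls, 5 in both apelin libraries and 32 in 1 library of each group. That split was not particular to members. Among entries in 2 libraries, 12 of 18 lower-numbered and 24 of 38 predicted ones were in 1 library of each group. Over all members the 2 libraries of a group often parted. Of the members above 0 in at least 1 control, 99 (53.2%) were at 0 in the other control, and of those above 0 in at least 1 apelin library, 92 (53.5%) were at 0 in the other. For entries numbered below 1000 these shares were 14.8% and 14.6%. The share above 0, members minus lower-numbered entries, was -44.0 to -26.1 percentage points by library, on average -32.3 (exact sign-flip permutation test, two-sided, p = 0.125, the smallest possible). The counts come from bulk RNA, so fewer cells with a miRNA and less of it per cell cannot be told apart.

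Zeros were not spread evenly over the libraries. Controls 1 and 2 had 134 and 139 members above 0, and apelin 1 and 2 had 142 and 110. Apelin 2 was thus the lowest, while apelin 1 was the highest. The groups overlapped, with means of 136.5 ± 3.5 (SD, n = 2) and 126 ± 22.6 (SD, n = 2), a difference of -10.5 (p = 1 by a two-sided exact permutation test, which cannot go under 0.333). Without apelin 2 the difference turned to 5.5. Entries numbered below 1000 did not share the low value: 248 of them were above 0 in apelin 2, against 232 to 244 in the other libraries. Predicted entries were also lowest there, so the low value was not particular to members. Controls 1 and 2 had 208 and 188 predicted entries above 0, and apelin 1 and 2 had 171 and 163.

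Detection differed between blocks of numbers. The 41 members of the 1000 series were above 0 in all libraries in 21 cases and held 80.4% to 87.1% of all member counts. Of the 56 in the 3000 series, 19 were above 0 in all libraries. In the 4000 series this held for 7 of 50. The 66 members of the 6000 series made up the largest block, with 11 above 0 in all libraries and 34 in 1 library alone. Their top member, miR-6840-5p, had 80 and 48 counts in the controls and 105 and 66 with apelin. It alone of that series reached the mean of 10 TPM needed for testing.

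As a share of all counts, members held 0.896% of control 1 (95% Wilson interval 0.889% to 0.904%), 1.53% of control 2 (1.52% to 1.54%), 0.988% of apelin 1 (0.980% to 0.997%) and 0.729% of apelin 2 (0.722% to 0.736%). These intervals cover counting error only, since reads copied by PCR and lacking molecular identifiers do not each stand for a molecule. Control 2 was the highest and apelin 2 the lowest, and the groups overlapped. Controls averaged 1.21% ± 0.45 (SD, n = 2) and apelin libraries 0.859% ± 0.18 (SD, n = 2), a difference of -0.35 percentage points (exact permutation test, two-sided, p = 0.667). It was -0.67 without control 1 and -0.038 without control 2. Most of the excess in control 2 was a single entry: without miR-1260a its share was 0.976%, and the difference between the groups -0.077 percentage points. Over the 65 members above 0 in every library the share was 0.880% and 0.895% in controls and 0.956% and 0.698% with apelin, a difference of -0.061 percentage points (exact permutation test, two-sided, p = 1). Without apelin 2 that difference turned to 0.068.

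The origin lists, drawn up from background knowledge by miRNA number, place most of these counts with tRNA-like entries. This list had 3 members in the table, miR-1260b, miR-1260a and miR-4521, which together held 57.7% and 76.4% of member counts in controls 1 and 2, and 59.3% and 57.7% in apelin 1 and 2. By background knowledge the miR-1260 pair matches the 3′ part of leucine tRNA. miR-4521 has been classed as a fragment of a serine tRNA transcript. Sequence matches to tRNA were not tested here. In the annotation the hairpin of miR-4521 (chr17:8186945-8187004, plus strand, GRCh38) overlaps a tRNA gene, TRS-GCT4-3. Those of miR-1260a and miR-1260b overlap none, and their nearest tRNA genes lie 4.3e+06 and 2.01e+07 nt away. Hairpins kept across mammals gave 9 entries, of which 8 were above 0 in every library and 8 reached 10 TPM, led by miR-1307-3p, miR-1301-3p and miR-1296-5p. The early mirtron list gave 3 (miR-1226-3p, miR-1234-3p and miR-1229-3p). Of these miR-1234-3p alone was above 0 in every library, with 30 and 20 counts in controls and 48 and 28 with apelin. Those antisense to an older hairpin gave 2, miR-3065-5p and miR-3074-5p, the latter with 21 and 25 counts in controls and 35 and 19 with apelin. Of the placenta and 14q32 clusters only miR-1197 was listed, with 4 counts in apelin 2 and 0 elsewhere. The lists of snoRNA or snRNA, ribosomal spacer and Alu entries had 0 members in the table. The other 222 members were on no list.

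miR-1260b was the most abundant member and ranked 36 among the 516 catalogue entries. It stood at 5174 and 5593 TPM in controls 1 and 2, and at 5857 and 4207 TPM in apelin 1 and 2. The apelin libraries lay on either side of both controls, and edgeR gave a log2 fold of -0.083 (SE 0.17, adjusted p = 0.874), or 0.042 without apelin 2. Its hairpin lies on chr11:96341438-96341526 (plus strand, GRCh38), outside the annotated genes of that strand. miR-1260a, from chr14:77266218-77266290 (plus strand, also outside genes), had 31145 counts, all of them in control 2. In the same library miR-1260b had 31672 counts, so miR-1260a had 98.3% of its count. Over the 18 bases that can be compared their sequences differ at 1 position, A9U (miR-1260b first, counted from the 5′ end), which lies just past the shared seed. How reads that match both were counted is not given here, and the values of this pair are uncertain.

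The same form of listing was seen in 4 other members. miR-4521 reached 3186 counts, all of them in control 2. miR-3615, whose hairpin (chr17:74748613-74748699, plus strand) overlaps an annotated exon, had 1201 counts in apelin 2 and 0 in the others. miR-3605-3p, from a PHC2 transcript (chr1:33332393-33332492, minus strand), had 259 counts in apelin 1 and 0 in the others. miR-1226-3p, a mirtron of the RNA helicase gene DHX30 (chr3:47849555-47849629, plus strand), had 442 counts in control 2 and 479 in apelin 1, and 0 in control 1 and apelin 2. None of these 5 split by group, and each had a library at 0 beside a library of the same group far above the limit of 3 counts. No fold is given for them. Of the 29 members that reached 100 counts in some library these were 5 (17.2%), against 3 of 178 (1.69%) for entries numbered below 1000 and 47 of 54 (87.0%) for predicted entries. Just under 100 counts stood miR-2116-3p (0 and 67 counts in controls, 94 and 0 with apelin) and miR-1229-3p (85 and 25 in controls, 0 in both apelin libraries). miR-10527-5p split the other way, with 0 in both controls and 59 and 43 counts with apelin. The means of miR-1229-3p and miR-10527-5p were under 10 TPM, so neither was in the main test. With no filter edgeR called both, among 6 of 240 members (2.5%), where the background was 4.74%.

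**Figure D2:**
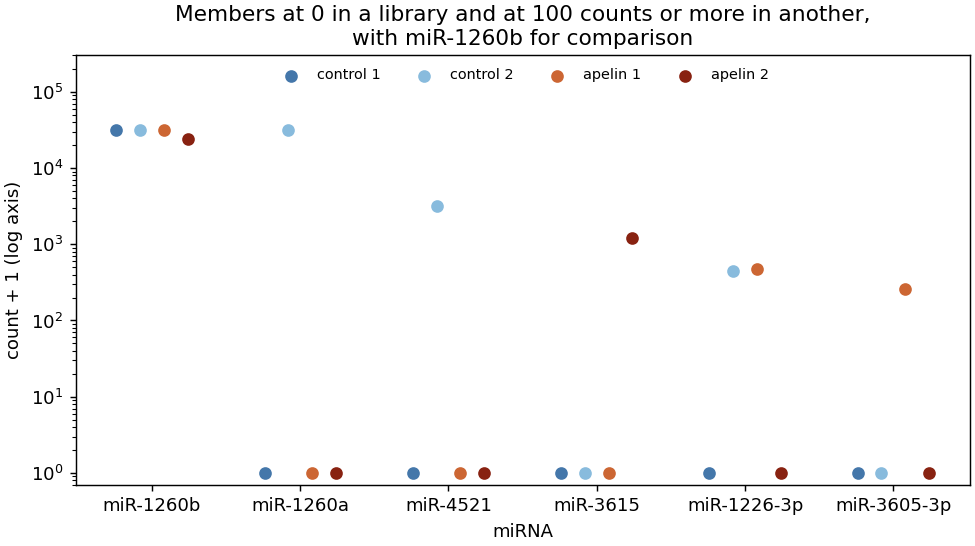
Count plus 1 (log axis) in each library for miR-1260b and for the 5 members with both a 0 and a count of at least 100; a point at 1 is a count of 0. miR-1260b lies between 23987 and 31672 counts, and miR-1260a comes near it in control 2 alone.

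The comparison of apelin with control was fitted on all entries with a mean of 10 TPM or more, 263 in all, of which 34 were members. The other 206 members were too low to be tested. The lowest members inside that limit were miR-1843 (10.8 TPM) and miR-1343-3p (10.6), and the highest outside were miR-4467 (9.39) and miR-1275 (8.68). edgeR's quasi-likelihood test called 0 of the 34 members, with a background of 0% (0 of 263 entries). Leaving out a control moved the number of calls, but such a fit has a single control library, so no count is given. At an unadjusted p under 0.05 there was 1 member, miR-3613-5p, where the background was 5.7%. DESeq2 called 5 of the 34 (14.7%, against a background of 20.2%): miR-3613-5p, miR-1269a and 3 that were at 0 in 3 libraries (miR-1260a, miR-3615 and miR-4521). Limma on log2(TPM + 1) called 0 members.

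miR-3613-5p, from an intron of DLEU2, the noncoding RNA gene that also hosts miR-15a and miR-16-1 (chr13:49996465-49996486 for the mature sequence, minus strand), had the highest fitted fold of the 29 tested members above 0 in all libraries. It stood at 53.9 and 44.5 TPM in controls 1 and 2, and at 82.9 and 86.1 TPM in apelin 1 and 2. Both apelin libraries lay above both controls. The means were 49.2 ± 6.6 (SD, n = 2) and 84.5 ± 2.3 TPM (SD, n = 2), a ratio of 1.72. The fitted log2 fold was 0.80 (SE 0.22, adjusted p = 0.627 in edgeR, DESeq2 adjusted p = 6.64e-05). Adjusted p in the other edgeR and limma settings with all libraries ran from 0.257 to 0.759. With a library left out the fold ran from 0.62 to 0.96. Its sequence holds a long run of U and, at a GC content of 22.7%, was the lowest in GC of all members with a sequence.

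miR-1269a, from a hairpin outside annotated genes (chr4:66276824-66276928, plus strand), had the next smallest p. It stood at 306.6 and 338.3 TPM in controls 1 and 2, and at 264.9 and 222.4 TPM in apelin 1 and 2, so both apelin libraries lay below both controls. The fitted log2 fold was -0.39 (SE 0.13, adjusted p = 0.627 in edgeR, DESeq2 adjusted p = 0.00846), and it ran from -0.49 to -0.36 with a library left out. Adjusted p in the other edgeR and limma settings with all libraries ran from 0.276 to 0.759. In all, 4 of the 29 members (13.8%) had both apelin values under both control values, where the background over the 216 tested entries above 0 in all libraries was 18.1%. The other 3 were miR-1304-3p, miR-1910-5p and miR-3909. Above both controls lay 2 members (6.90%, against a background of 22.7%), miR-3613-5p and miR-2277-5p.

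The rest of the most abundant members had groups that overlapped. The hairpin of miR-1307-3p (chr10:103394253-103394401, minus strand) overlaps an annotated exon of ATP5MD, and its mature sequence also lies within an annotated intron. miR-1307-3p stood at 596.0 and 578.5 TPM in controls and 636.2 and 474.1 with apelin. miR-4286 stood at 696.6 and 684.5 TPM in controls and 808.3 and 596.5 with apelin. In both, the controls lay close together and the apelin libraries on either side of them. miR-1301-3p, from an intron of the DNA methyltransferase gene DNMT3A (chr2:25328640-25328721, minus strand), stood at 434.1 and 328.4 TPM in controls and 335.8 and 233.8 with apelin. miR-1180-3p, from an intron of B9D1 (chr17:19344506-19344574, minus strand), stood at 356.4 and 299.0 TPM in controls and 335.4 and 239.1 with apelin. miR-1296-5p stood at 139.8 and 124.7 TPM in controls and 199.2 and 139.3 with apelin, the last just below control 1. Its fitted log2 fold was 0.37 (SE 0.24, adjusted p = 0.635 in edgeR), and it was 0.12 without apelin 1 and 0.51 without apelin 2.

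Among the remaining members named by level, miR-7706 (137.9 TPM on average), miR-1247-5p (115.8), miR-1908-5p (71.8), miR-1292-5p (59.9) and miR-3940-3p (37.4) were each lowest in apelin 2. The hairpin of miR-1908-5p (chr11:61815161-61815240, minus strand) overlaps an annotated exon of the fatty acid desaturase gene FADS1. Its mature sequence also lies within an annotated intron. miR-1908-5p stood at 80.5, 77.7 and 79.9 TPM in control 1, control 2 and apelin 1, and at 49.3 in apelin 2. Apelin 1 therefore lay between the controls and apelin 2 apart from all 3. The narrowest ranges of the 15 were those of miR-3065-5p, whose hairpin lies antisense to that of miR-338, at 48.9 to 55.8 TPM, and miR-3200-3p, from an intron of OSBP2, at 47.9 to 56.0 TPM. Adjusted p over the 15 members named by level ran from 0.627 to 0.960 in edgeR.

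**Figure D3:**
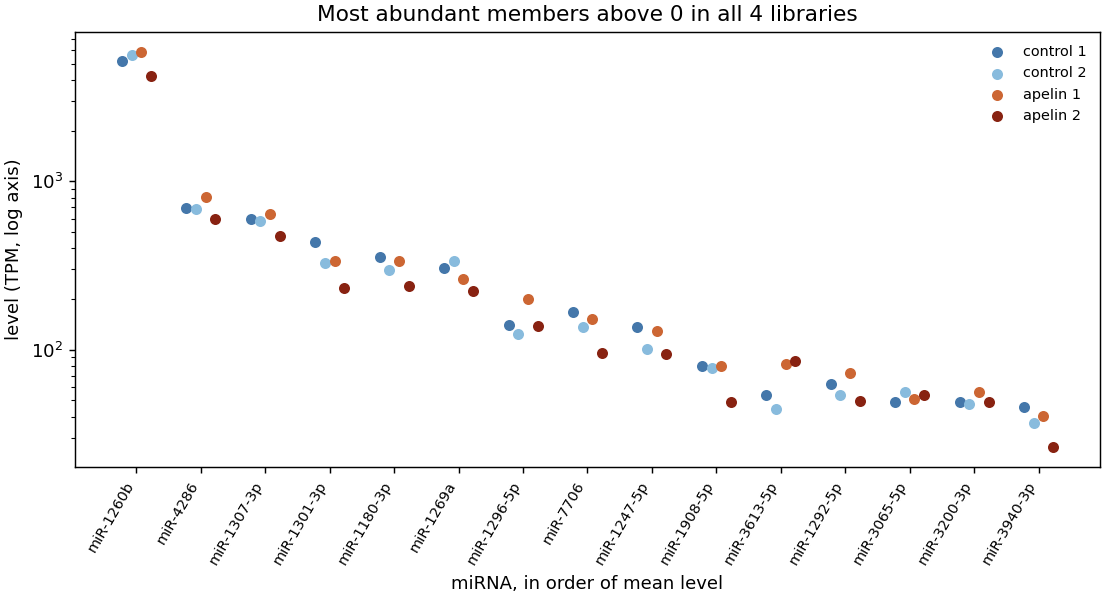
TPM (log axis) in each of the 4 libraries for the 15 most abundant members above 0 in all libraries, in order of mean level. Apelin 2 is the lowest point for most of them, and miR-3613-5p is the only one of the 15 with both apelin points above both controls.

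Of the 29 tested members above 0 in all libraries, 19 had a negative fitted log2 fold change and 10 a positive one, with a median of -0.077. Over all 216 such entries 104 were negative, with a median of 0.012, and over the 178 numbered below 1000 there were 81, with a median of 0.031. Without apelin 2, which leaves 1 apelin library, the members' median was 0.037, and 13 of the 29 were negative. Medians of lower-numbered entries with a sequence moved as well. They went from -0.049 to -0.035 for 65 entries at 50% GC or more, and from 0.064 to -0.098 for 88 under 50%. In apelin 2 itself 19 of the 29 had their lowest value, and the median log2 difference from the mean of the other 3 libraries was -0.35. For entries numbered below 1000 it was -0.044, and 68 of 178 had their lowest value there. Median differences for members in the other libraries were 0.12 in control 1, 0.0085 in control 2 and 0.24 in apelin 1.

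**Figure D4:**
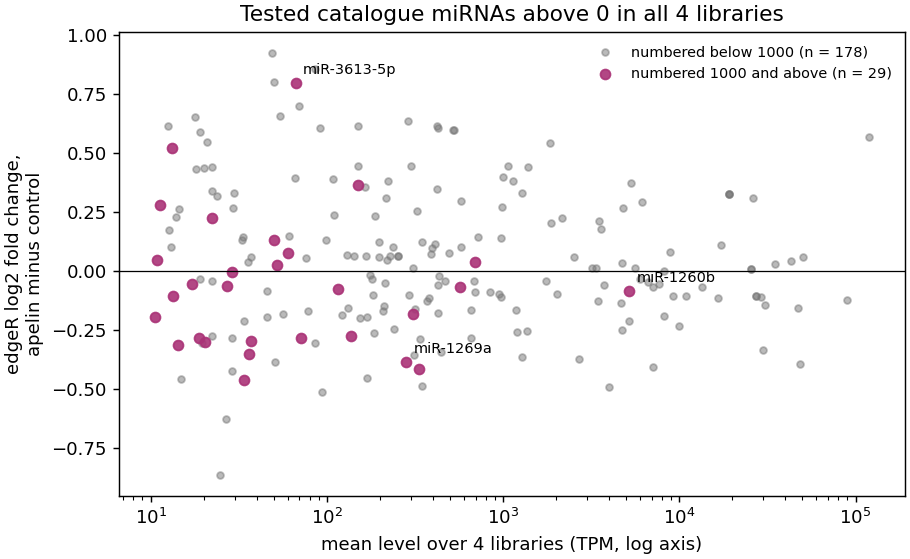
edgeR log2 fold change (apelin minus control) against mean TPM (log axis) for the 29 tested members and the 178 tested entries numbered below 1000 that were above 0 in all libraries. Of the members 19 lie below 0, the lowest at -0.46, and 10 lie above it, with miR-3613-5p highest at 0.80.

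Members were richer in G and C than the lower-numbered entries. The median GC content of the mature sequence was 59.1% over the 217 members with a sequence (quartiles 47.8% and 65.2%), and 45.8% over the 235 entries numbered below 1000 (quartiles 40.9% and 54.5%). At 50% GC or more were 159 members (73.3%) and 97 of the others (41.3%). Of the 25 tested members above 0 in all libraries that have a sequence, 23 were at 50% or more, and the exceptions were miR-3613-5p (22.7%) and miR-3065-5p (39.1%). GC content moved with the low values in apelin 2. For the 23 members at 50% or more the median log2 difference of apelin 2 from the other 3 libraries was -0.40, with 18 of 23 lowest there. For entries numbered below 1000 it was -0.26 at 50% GC or more (36 of 65 lowest) and 0.17 under 50% (25 of 88 lowest). In detection, 75 of the 159 members at 50% GC or more were above 0 in apelin 2, against 93 to 99 in the other libraries, while of the 58 under 50% there were 25 in apelin 2 and 25 to 28 in the others. The GC-rich entries numbered below 1000 went the other way, with 89 of 97 above 0 in apelin 2 and 79 to 87 in the other libraries. The part of GC content in the group comparison was not tested.

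**Figure D5:**
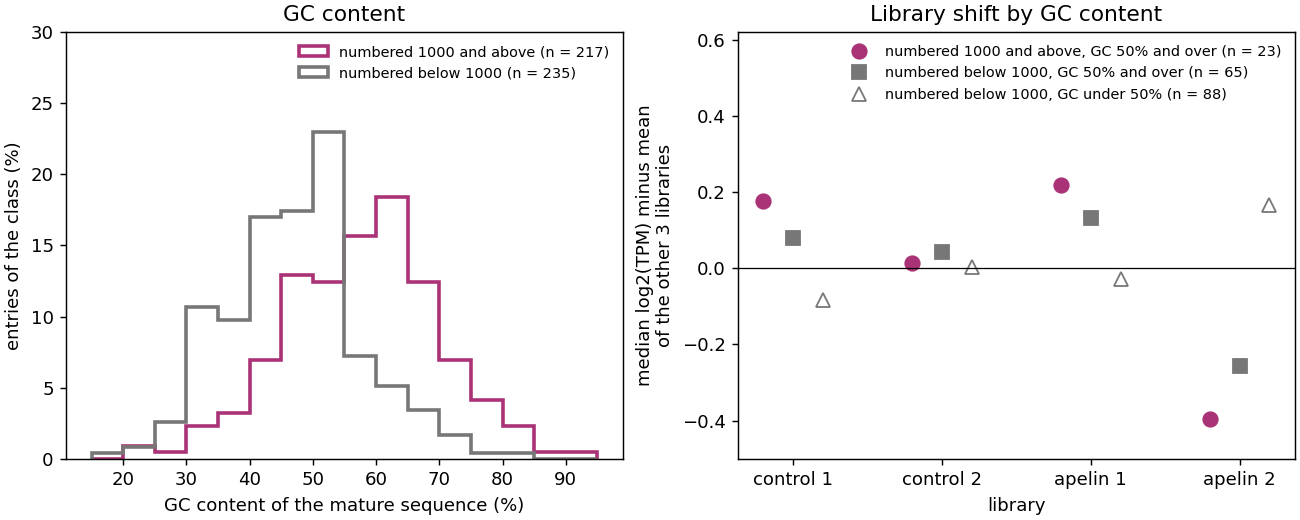
Left, GC content (%) of the mature sequence as a share of entries (%), for the 217 members and 235 entries numbered below 1000 with a sequence. Right, the median log2 difference of each library from the mean of the other 3, for tested entries above 0 in all libraries; in apelin 2 both GC-rich sets lie below 0 (-0.40 and -0.26) and the GC-poor set above it (0.17).

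Many members ended at the 3′ end of an intron. The mature sequence ended within 5 nt of an annotated 3′ splice site in 58 of 217 members, and exactly at it in 47 of these. All 58 were 3p arms, which is 55.8% of the 104 members named as 3p with a sequence. Of the 91 lower-numbered 3p arms with a sequence 2 did so. In the 6000 series this held for 42 of 44 3p arms with a sequence. The 58 had a median of 76.2% pyrimidines, and 47 (81.0%) ended in AG, against 11 of the other 159 members (6.92%). The introns they close ran from 69 to 4350 nt, with a median of 241 nt and 23 of them under 200 nt. The shortest was that of miR-1229-3p in MGAT4B. It and the 75 nt intron of miR-1226-3p in DHX30 are classic mirtrons, while longer introns leave a tail on 1 side of the hairpin.

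These splice-site members were low. Their highest mean was that of miR-1226-3p, 42.0 TPM, followed by miR-3605-3p at 12.2 TPM, and both were at 0 in at least 2 libraries. None of the 58 was among the 29 tested members above 0 in all libraries. In all 4 libraries 11 of the 58 (19.0%) were above 0, against 48 of the other 159 members (30.2%). The share in 1 library alone was close to that of the others, at 28 of 58 (48.3%) and 72 of 159 (45.3%), and the median of the mean levels was 0.665 and 0.82 TPM. miR-6881-3p, from SEMA7A (chr15:74411357-74411432, minus strand), had 42 and 53 counts in controls and 46 and 22 with apelin. miR-6769b-3p, from IKBKE (chr1:206474803-206474864, plus strand), had 36 and 41 counts in controls and 30 and 22 with apelin. miR-6787-3p, from SLC16A3 (chr17:82236668-82236728, plus strand), had 0 and 47 counts in controls and 40 and 0 with apelin. Controls 1 and 2 had 32 and 29 of the 58 above 0, and apelin 1 and 2 had 33 and 19. Their summed level was 94.8 and 165.3 TPM in the controls and 228.1 and 43.2 TPM with apelin, so the groups overlapped and the apelin libraries were the highest and the lowest. Both higher sums include miR-1226-3p, at 78.05 TPM in control 2 and 90 TPM in apelin 1, which was at 0 in the other 2 libraries. The sum of apelin 1 also includes miR-3605-3p, at 48.7 TPM there and 0 in the others. Without these entries apelin 1 would not be the highest, while apelin 2 would still be the lowest. These members are GC-rich too, with 52 of 58 at 50% or more, and the part of GC content here was not tested.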

How the data were processed

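Small RNA libraries from 2 control and 2 apelin-treated samples of PC-3 cells were compared, grouped by the labels. The authors deposited 1 table that gives every entry a whole-number read count and a TPM value per library. Trimmomatic 0.30 (read trimming) and DESeq2 are named in the submitters' processing notes. For the aligner, catalogue and counting rule, the sources used here give nothing. The deposited TPM values equal counts per 1000000 of the library total (within 0.005 in 3 libraries and 0.151 in apelin 2), with no division by length. No column went unmatched.

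Counts of the whole table with a mean of 10 TPM or more were tested with edgeR 4.0.16 (quasi-likelihood, TMM scaling, two-sided, Benjamini-Hochberg over all tested entries, threshold 0.05). SE was taken as the absolute log2 fold divided by the root of the F statistic. DESeq2 1.42.0 and limma 3.58.1 (R 4.3.3) were alternatives. The tools were also run on simulated counts, and no result here rests on those runs. Unlike the data, the simulated counts had a fixed dispersion and no entries set to 0 in single libraries. Values per library were compared by exact permutation. Sequences and loci came from RefSeq (GRCh38.p14), hosts and introns from GENCODE release 29 (GRCh38), and tRNA genes from RefSeq. Entries on chr8 were left out of the sequences and loci. The splice site check used a tolerance of 5 nt.

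Named members are up to 15 tested members above 0 in all libraries by mean TPM, those with both a 0 and a count of at least 100, and up to 3 of each origin list. Others were named after their values were seen. Members, lists and tests were chosen with earlier results of these data known.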

Additional observations from a re-analysis of the deposited data

How the results depend on the processing

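Leaving out miR-1260a or miR-1260b, and leaving out single libraries for the counts of negative folds and of entries above 0, were chosen after seeing the data. The other settings were planned. edgeR called 0 of 263 entries, 4 at a minimum of 100 TPM and 52 with no filter. DESeq2 called 53. Limma called 4 on log2(TPM + 1), 5 with 0.1 as its pseudocount and 4 with 10. Leaving out a control moved the number of edgeR calls, but a group then has a single library, so no count is given. With no filter 1096 entries were tested, so the 52 were 4.74%. Of the 34 tested members DESeq2 called 5. edgeR called 0 of them, and 6 of 240 with no filter (2.5%, all at 0 in at least 2 libraries). With a replicate block it called 0 entries and 0 members, with 7 of 34 members (20.6%) and 50 of 263 entries (19.0%) at an unadjusted p under 0.05. No label ties a control to an apelin library. Deviations from the group means had a correlation of 0.318 between libraries of the same number, over 207 miRNAs.

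The median fold of tested members, -0.077, kept its sign in all settings with all libraries and ran from -0.26 to 0.037 with a library left out. Of the 15 named folds 9 kept their direction in every setting that tested them, and 6 turned only with a library left out: miR-1260b (-0.31 to 0.042), miR-4286 (-0.16 to 0.15), miR-1307-3p (-0.26 to 0.035), miR-1247-5p (-0.32 to 0.17), miR-1292-5p (-0.20 to 0.24) and miR-3065-5p (-0.12 to 0.090). The cause was not tested. With a library left out the difference in share of all members ran from -0.67 to -0.038 percentage points, the difference in share of members above 0 in all libraries ran from -0.190 to 0.068 percentage points and that in the number above 0 from -26.5 to 5.5. Low counts limit the rest, since 206 of 240 members were under 10 TPM.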

Other observations

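Seeds were rarely shared. The 217 members with a sequence had 209 distinct seeds, and 18 members shared theirs with another catalogue entry that has a sequence. Of these, 2 shared it with an entry numbered below 1000: miR-1271-5p with miR-96-5p, and miR-3155b with miR-484. miR-1271-5p had 0 and 4 counts in controls and 7 and 0 with apelin, so it added little to the level of that seed. The other pairs lay within the members, such as miR-1260a with miR-1260b and miR-6769b-3p with miR-3183.

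The length given in the deposited table equalled the RefSeq length in 86 of 217 members (39.6%) and in 127 of 235 entries numbered below 1000 (54.0%). It was longer in 80 members and shorter in 51, and within 1 nt in 187. For the 58 splice-site members it was equal in 16 and longer in 35.

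All 4 counts were the same as those of another entry for 97 members. The highest count among these was 37, for miR-1276 and NovelmiRNA-544 in control 2, and the next was 16.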
